A study of Mus musculus with 24 samples.

Results

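The genes described here are 54 components of the DNA replication machinery measured in otocyst epithelium of mouse embryos. The otocyst is the vesicle from which the inner ear forms. They were chosen by name, as known parts of replication and of its entry control, out of 15736 genes in the deposited count table, and all 54 were in it. The choice was made with earlier results of these data known. The genes fall into 8 steps. These are origin licensing (10 genes), helicase activation (6), polymerases (9), the clamp with single-strand binding and ligation (11), nucleotide supply (5), chromatin assembly (4), G1/S regulators (5), and fork protection and repair (4).

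The study asked which transcripts depend on FGFR2b signalling at the start of inner ear morphogenesis. Control embryos (con) had the genotype Rosa26rtTA/+, so that they made the doxycycline-dependent activator rtTA from the broadly active Rosa26 locus and nothing under its control. Experimental embryos (R2b) were Rosa26rtTA/+;Tg(tetO-s(dn)Fgfr2b)/+ and so made a secreted, dominant-negative FGFR2b on doxycycline. Every dam received the drug, con embryos included, as an injection of 1.5 mg/kg and then in chow at 200 mg/kg. Exposure started at embryonic day E9.75 and lasted 12 hours (written E9.75+12h), or lasted 24 hours after a start at E9.25 or E10.25 (written E9.25+24h and E10.25+24h). E9.75+12h and E9.25+24h end at the same stage, E10.25, and are called the early exposures here. Otocyst epithelia of a litter were pooled by genotype, giving one con and one R2b library per dam. The count table could be matched to 3 litters of E9.75+12h and to 4 of each 24-hour exposure, which makes 22 libraries. The p-values below therefore measure the spread between pools of different litters. Where the litter is a block, they measure how the difference between the R2b and con pools of a dam varies over litters.

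Before DNA can be copied, the origin recognition complex, CDC6 and CDT1 load rings of the MCM helicase onto chromatin in G1. CDC45, the GINS complex and MCM10 then turn the rings into active helicases. Polymerase alpha with primase starts each strand, polymerases epsilon and delta extend the strands on the PCNA clamp, and FEN1 and LIG1 join the fragments. Many genes for these proteins are transcribed in a wave at the G1/S boundary under E2F factors, so their RNA is abundant in dividing cells such as those of the growing otocyst and scarce in resting ones.

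Promoter letters were examined because E2F control is a known shared feature of these genes. RefSeq promoter windows (assembly GRCm38.p6, 250 bases before to 50 after the annotated start) were found for 45 of the 54 genes. They were searched on both strands for the 8-letter E2F-type sequences TTTCCCGC, TTTCGCGC, TTTGCCGC and TTTGGCGC, for CCAAT, and for TTTGAA, the core of the element called the cell cycle genes homology region. Some genes have several windows, and a gene was counted once if any of its windows held a match. An E2F-type sequence was present for 17 of the 45 genes (37.8%). It was present for 4.47% of the 11428 genes in the count table with a window, and for 2.60% of all 27025 genes with a window. In 10 genes a match lay before the start, and in 7 only from the start on. The stretches below are shown because they carry such a match upstream of the start, in capitals, read 5′ to 3′ on the gene's strand. Overlapping matches form a longer capital run in Mcm5 and Mcm6.
Orc1, chr4:108579394-108579453, plus strand: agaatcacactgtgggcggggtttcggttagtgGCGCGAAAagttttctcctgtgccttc
Cdc6, chr11:98907987-98908046, plus strand: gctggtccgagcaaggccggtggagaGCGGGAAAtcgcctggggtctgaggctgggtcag
Mcm5, chr8:75109332-75109391, plus strand: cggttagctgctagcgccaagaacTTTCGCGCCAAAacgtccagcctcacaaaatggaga
Mcm6, chr1:128359745-128359815, minus strand: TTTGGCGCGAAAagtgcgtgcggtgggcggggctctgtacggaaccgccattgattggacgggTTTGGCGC
Mcm7, chr5:138172015-138172074, minus strand: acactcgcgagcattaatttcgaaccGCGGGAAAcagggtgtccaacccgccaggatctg
Gins3, chr8:95633492-95633551, plus strand: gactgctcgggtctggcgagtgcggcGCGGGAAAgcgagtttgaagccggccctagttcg
Pola1, chrX:93632260-93632319, minus strand: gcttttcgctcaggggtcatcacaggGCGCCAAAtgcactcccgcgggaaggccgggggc
E2f7, chr10:110745215-110745274, plus strand: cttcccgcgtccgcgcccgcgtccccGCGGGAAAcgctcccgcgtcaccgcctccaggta

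Of the 10 genes with an upstream match, Rfc3 and Uhrf1 are not shown. By step, genes with a match, of those with a window, were 7 of 9 in licensing, 4 of 7 in polymerases and 1 of 3 in helicase activation. They were 1 of 3 in fork protection, 1 of 4 in chromatin assembly and 1 of 4 in G1/S regulators. For the clamp step they were 2 of 10, and for nucleotide supply 0 of 5. The 60 bases before the RefSeq start are also shown for Tk1 and Brip1, the members with the largest fall and the only rise, whose windows held none of the 4 E2F-type sequences. RefSeq and GENCODE starts differ, and the stretches of Orc1, Cdc6, Mcm7, Gins3 and Tk1 overlap the GENCODE gene.
Tk1, chr11:117826015-117826074, minus strand: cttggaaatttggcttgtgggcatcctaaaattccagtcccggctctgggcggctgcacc
Brip1, chr11:86201194-86201253, minus strand: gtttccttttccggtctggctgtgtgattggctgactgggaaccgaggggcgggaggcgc

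CCAAT was found for 29 of the 45 genes (64.4%, against 42.6% of genes in the count table) and TTTGAA for 6 (13.3%, against 14.1%). The E2F-type share was 38.9% of 18 other G1/S regulators and 25% of 32 other replication genes with a window, from lists counted below. In 20 mitotic genes with a window, the E2F-type share was 5.0%, the CCAAT share 85.0% and the TTTGAA share 70.0%. A match is a string of letters in this window and was not tested as a binding site.

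**Figure D1:**
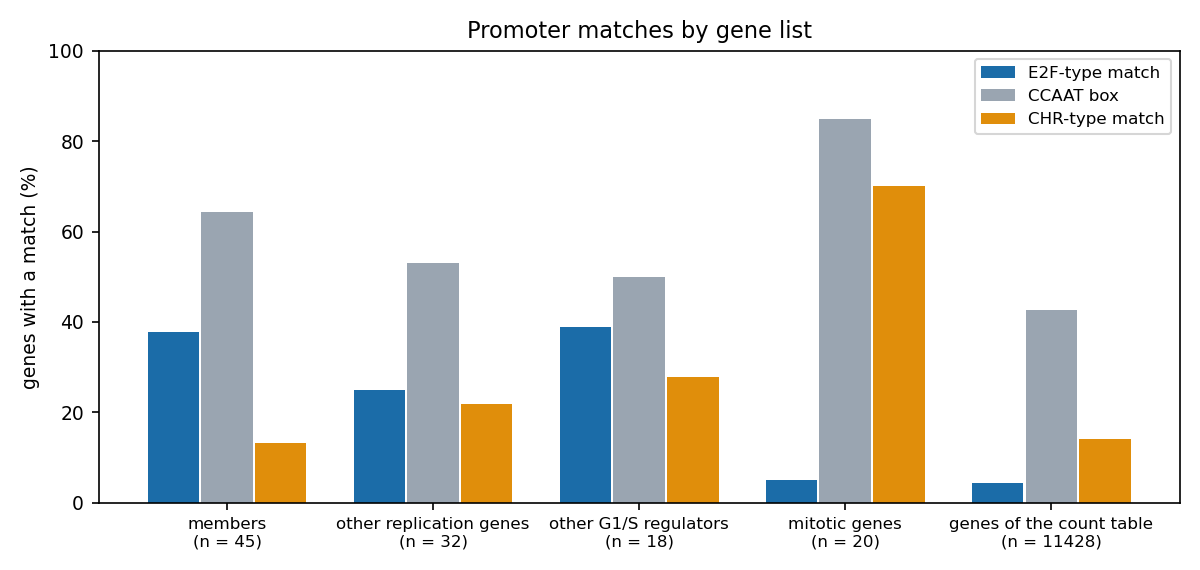
Share of genes (vertical axis, percent of genes with a RefSeq window) with an E2F-type match, a CCAAT box or TTTGAA (labelled CHR-type) in a window. Bars are grouped by gene list, with the number of genes with a window under each name. The replication genes stand at 37.8% for E2F-type letters and 13.3% for TTTGAA, and the mitotic genes at 5.0% and 70.0%. Other G1/S regulators stand at 38.9% for E2F-type letters and other replication genes at 25%.

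Library totals were 18.7 to 28.2 M counts, and the lowest count of any member in any library was 141, for Rpa3. The mitochondrial share was 4.00% to 6.69% in the libraries of E9.75+12h, against 1.53% to 1.70% and 1.88% to 2.85% in those of E9.25+24h and E10.25+24h. All 10 otic epithelium markers were above 1 CPM (counts scaled by library total and TMM factor) on average in every group. Their summed level was 3080 to 3360 CPM in con and 3430 to 4320 in R2b at E9.75+12h, with no overlap. At E9.25+24h it was 1840 to 3150 in con and 2750 to 4670 in R2b, and higher in R2b in each litter. At E10.25+24h it was 4680 to 7660 in con and 5290 to 7090 in R2b. Blood markers (10 of 12 in the table), which could come from attached blood cells, summed to 20.6 to 769 CPM in con and 91.7 to 117 in R2b at E9.75+12h, and to 9.71 to 1600 and 12.6 to 627 at E9.25+24h. Mesenchyme markers summed to 131 to 399 and 259 to 439 CPM at E9.75+12h, and to 93.3 to 1320 and 105 to 1230 at E9.25+24h. Endothelium markers stayed at or below 278 CPM and neural tube markers (5 of 13 in the table) at or below 53.2. The lowest total of any gene in the count table over the libraries used was 100, so no marker in it could be at 0 in all of them. At E10.25+24h blood markers summed to 169 to 672 CPM in con and to 357, 713, 5110 and 269 in the R2b libraries of litters 1 to 4, so that of litter 3 stood far above the rest. Blood, mesenchyme, endothelium and neural tube sums overlapped between con and R2b in each exposure. Of all genes, 9.78% were called lower and 10.20% higher at E9.75+12h, and 6.50% and 9.09% at E9.25+24h without the litter block. Blood, mesenchyme and endothelium genes tested at E9.75+12h were 8, 11 and 10. Of these single genes, 3 were called at E9.75+12h and, without the litter block, 0 in the 24-hour exposures. Lum and Dcn, matrix genes of mesenchyme, were higher in R2b (log2 1.15, FDR 0.00423, and 1.03, FDR 0.00851), and the endothelial receptor gene Tek was lower (-1.41, FDR 0.0158). With the block all 3 were also called at E9.25+24h, in the same directions (Lum 0.48, Dcn 0.86 and Tek -1.29). Hba-x, Prrx2, Kdr and Cldn5 of these lists were then called lower there, at -0.58, -0.54, -0.72 and -0.79. The block called 20.1% of all genes lower and 20.5% higher at E9.25+24h. Of the 10 otic genes, 5 were called higher and 1 lower at E9.75+12h (10.20% and 9.78% of all genes). The block gave 4 and 0 (5.79% and 6.13%). At E9.25+24h there were 2 and 2 (9.09% and 6.50%), and 6 and 2 with the block (20.5% and 20.1%). Of 5 neural tube genes, 1 was called higher at E9.75+12h with and without the block. At E9.25+24h 1 was higher and 1 lower with the block only. The part of these lists, the otic list included, in the results was not tested.

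The transgene was read from Ighg1, an immunoglobulin constant-region gene, because the secreted receptor is known as a fusion with that region. Ighg1 was at 0.0479 to 1.90 CPM in con and 1000 to 2980 in R2b over the E9.75+12h and E9.25+24h libraries. At E10.25+24h litter 1 went against its labels. The library labelled con had 703 CPM of Ighg1 and the library labelled R2b had 56.3. The con library of litter 3 had 206 CPM, against 1.45 and 0.758 in those of litters 2 and 4. Results at E10.25+24h are therefore given with and without litter 1, and the labels were left as they are.

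Most replication genes fell in R2b after both early exposures, among them genes of all 8 steps. At E9.75+12h, 49 of 54 were called lower and 0 higher by edgeR's quasi-likelihood test at a Benjamini-Hochberg adjusted p (FDR) under 0.05 over all genes. Of all 14882 genes tested there, 9.78% were called lower and 10.20% higher. The median log2 fold change, R2b over con, was -0.64 over the members and 0.01 over all genes. At E9.25+24h, 29 were called lower and 1 higher, where 6.50% of 14979 genes were called lower and 9.09% higher. The medians were -0.32 and -0.01. With the litter as a block, which pairs the pools of a dam, the counts were 44 lower at E9.75+12h (6.13% of all genes) and 52 lower and 1 higher at E9.25+24h (20.1% and 20.5%). At E9.75+12h the block called 0 members higher, and 5.79% of all genes. The unblocked count was smaller with any litter left out, in fits that also hold fewer libraries. Without litter 1, 12 members were called lower at E9.75+12h (1.22% of all genes), and 47 and 43 without litters 2 and 3 (15.0% and 5.77%). At E9.25+24h the count was 1, 1, 7 and 21 without litters 1, 2, 3 and 4 (0.454%, 0.672%, 2.58% and 5.59%), and DESeq2 called 40 with all litters (9.65%). With the block, leaving out litters 1, 2 and 3 in turn at E9.75+12h gave 2, 48 and 42 members lower (0.686%, 12.1% and 5.04%). The same at E9.25+24h, over litters 1 to 4, gave 50, 49, 51 and 52 (15.2%, 13.0%, 14.7% and 19.9%). The median over the members was -0.57 to -0.72 and -0.30 to -0.32 in the unblocked edgeR fits without a litter. In pooled tissue, fewer replicating cells and less of these RNAs per cell cannot be told apart.

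The groups did not overlap for most members. At E9.75+12h, 49 members had every R2b library below every con library, which 19.0% of all genes did, and 50 were lower in all 3 litters. At E9.25+24h the number without overlap was 31 (10.21% of all genes), and 52 were lower in all 4 litters. The share of all genes lower in every litter was not computed. Within single litters, 48.2% to 49.7% of all genes were lower at E9.75+12h and 49.6% to 51.9% at E9.25+24h. Every member called lower at E9.25+24h was also called lower at E9.75+12h, 29 of 54, where 3.89% of 14611 genes tested in both were. A further 20 members were called lower at E9.75+12h alone. Cdt1, Mcm2, Pold1 and Pole2 were called in neither.

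**Figure D2:**
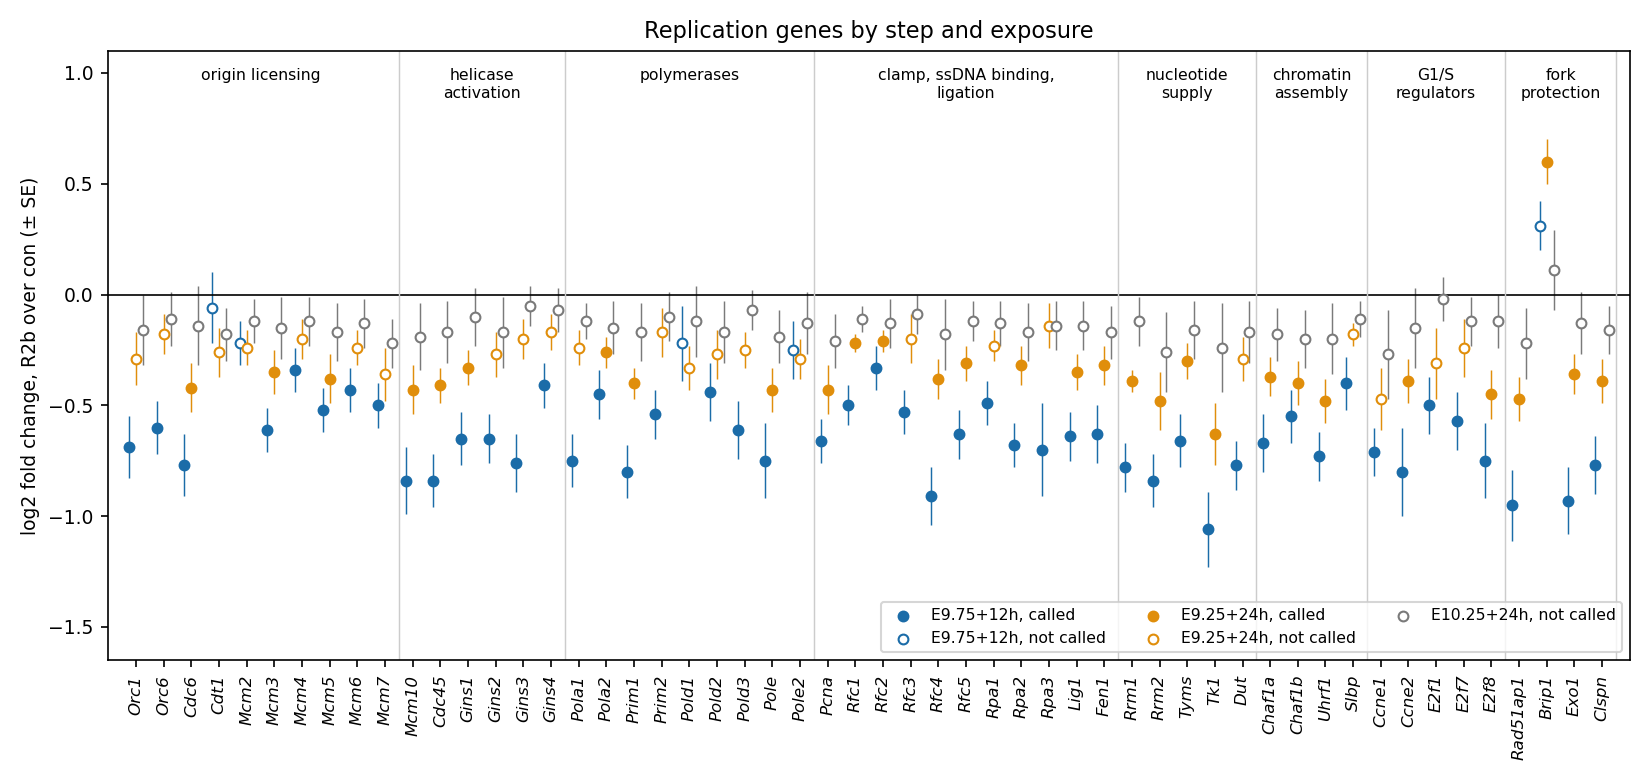
Log2 fold change of R2b over con (vertical axis, ± SE) for each of the 54 replication genes, ordered by step, at the 3 exposures; filled points passed an FDR under 0.05. The median of the E9.75+12h points is the lowest of the 3 exposures at every step, E10.25+24h points are all open, and Brip1 is the only gene above 0 in every exposure.

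Origin licensing had the smallest median fall of the 8 steps at E9.75+12h, -0.51, with 8 of 10 genes called lower. Cdc6, an ATPase that helps load the helicase, stood at 47.7, 59.9 and 57.8 CPM in the con libraries of E9.75+12h and at 26.9, 36.6 and 33.1 in R2b. At E9.25+24h Cdc6 was at 57.2, 61.3, 66.8 and 71.0 CPM in con and 46.0, 40.0, 48.9 and 56.4 in R2b. All R2b values were below all con values in both exposures. The log2 fold changes were -0.77 ± 0.14 (SE; edgeR FDR 0.00384) and -0.42 ± 0.11 (FDR 0.032). Mcm3, a helicase subunit, was at 257, 302 and 294 CPM in con and 166, 190 and 202 in R2b at E9.75+12h. Mcm3 was at 292, 291, 361 and 331 against 230, 215, 271 and 284 at E9.25+24h, where its groups lay close together. Its log2 fold change was -0.61 ± 0.10 and then -0.35 ± 0.10, the latter just inside the threshold (FDR 0.0495). Mcm5, another subunit, was at 312, 363 and 344 CPM in con and 223, 226 and 261 in R2b, and at E9.25+24h at 304, 330, 391 and 373 against 236, 237, 296 and 302. Mcm5 was called lower in both (FDR 0.00545 and 0.045).

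The other licensing genes moved less evenly. Orc1 and Orc6 of the origin recognition complex and the helicase subunits Mcm4, Mcm6 and Mcm7 were called lower at E9.75+12h, by log2 values of -0.69 to -0.34, and not at E9.25+24h, where they were -0.36 to -0.18. With the litter block all 10 licensing genes were called at E9.25+24h, and Mcm4 lost its call at E9.75+12h (FDR 0.0602). Mcm2, also a subunit of the ring, had 294, 358 and 338 CPM in con and 289, 263 and 297 in R2b at E9.75+12h, so its groups overlapped (log2 -0.22 ± 0.10, FDR 0.141). Cdt1, the loading factor that is degraded in S phase, had 54.1, 66.2 and 60.5 CPM in con and 56.9, 44.0 and 72.4 in R2b (log2 -0.06 ± 0.16, FDR 0.816). Cdt1 was thus lower in 1 litter of 3 at E9.75+12h and in 4 of 4 at E9.25+24h (log2 -0.26 ± 0.11, FDR 0.142, or 0.000555 with the block). The ring is built of 6 proteins in equal number. Per kilobase of exon, the con levels at E9.75+12h ran from 40.5 ± 2.80 CPM per kb for Mcm7 and 47.4 ± 4.68 for Mcm2 to 85.1 ± 6.52 for Mcm5 and 87.3 ± 5.37 for Mcm4 (SD, n = 3). The length used here and below is that of all annotated exons of a gene merged. It can exceed the length of the RNA present, so the order per kilobase depends on it.

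Helicase activation genes were all called lower at E9.75+12h (6 of 6, median -0.71), and 3 of 6 at E9.25+24h (median -0.30). Cdc45, which binds the MCM ring as it becomes active, was at 69.4, 81.2 and 70.2 CPM in con and 35.6, 41.3 and 46.9 in R2b at E9.75+12h. In the libraries of E9.25+24h Cdc45 was at 66.8, 70.3, 80.8 and 75.6 against 52.8, 50.9, 56.7 and 61.0. R2b stood at 56.1% of con and then at 75.5% (FDR 0.00149 and 0.0124). Mcm10, an origin-firing factor, was at 88.0, 98.6 and 87.5 CPM against 41.6, 47.4 and 64.7, and at E9.25+24h at 95.9, 96.5, 124 and 114 against 70.7, 72.5, 86.2 and 90.6. Its groups did not overlap in either exposure (log2 -0.84 ± 0.15 and -0.43 ± 0.11). Gins3, a subunit of the GINS complex, was at 25.4, 25.4 and 24.3 CPM in con and 13.3, 14.5 and 16.4 in R2b at E9.75+12h. After E9.25+24h, Gins3 was at 31.5, 33.7, 35.9 and 35.5 against 27.1, 29.3, 28.6 and 34.2, and the groups overlapped. Gins3 was called at E9.75+12h (log2 -0.76 ± 0.13, FDR 0.00324) and missed the threshold at E9.25+24h (log2 -0.20 ± 0.09, FDR 0.151), where it passed with the block (FDR 0.0211).

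The other GINS genes were spread in size. Gins1 was called lower in both exposures, and Gins2 and Gins4 were called at E9.75+12h, with log2 values of -0.65 and -0.41. Per kilobase of exon, con levels at E9.75+12h were 9.24 ± 0.236 CPM per kb for Gins3, 11.2 ± 0.115 for Gins2, 18.8 ± 0.445 for Gins1 and 66.3 ± 3.79 for Gins4 (SD, n = 3), though the 4 proteins form one complex. Gins4 was thus the highest of the 4 per length and had the smallest fall.

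Among the polymerases, 7 of 9 genes were called lower at E9.75+12h (median -0.54) and 3 at E9.25+24h (median -0.27). Prim1, the catalytic primase subunit that lays RNA primers, was at 72.6, 72.5 and 65.7 CPM in con and 34.6, 46.3 and 39.8 in R2b at E9.75+12h. Prim1 was at 87.9, 89.5, 105 and 93.5 against 66.2, 67.6, 77.3 and 73.9 at E9.25+24h. It had the smallest adjusted p of the step in both (FDR 0.00164 and 0.0103), with R2b at 57.3% and 75.8% of con. Pola1, the catalytic subunit of polymerase alpha, was at 91.7, 101 and 97.8 CPM against 49.7, 66.2 and 57.3 at E9.75+12h. In the libraries of E9.25+24h Pola1 was at 119, 117, 127 and 114 CPM in con and 95.5, 88.4, 105 and 115 in R2b, and the R2b pool of litter 4 lay within the con range. Pola1 was called in the first exposure (log2 -0.75 ± 0.12, FDR 0.00195) and not in the second (log2 -0.24 ± 0.08, FDR 0.072, or 0.00819 with the block). Pole, the catalytic subunit of the leading-strand polymerase epsilon, was at 104, 126 and 100 CPM against 52.8, 56.4 and 86.1. At E9.25+24h Pole was at 123, 116, 129 and 144 CPM against 92.1, 80.8, 94.4 and 113, with no overlap in either exposure (FDR 0.0115 and 0.0253).

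Polymerase delta, the lagging-strand enzyme, was less uniform. Its catalytic subunit gene Pold1 had 59.5, 65.7 and 59.9 CPM in con and 50.7, 38.7 and 69.3 in R2b at E9.75+12h, overlapping between groups (log2 -0.22 ± 0.17, FDR 0.381). Its partners Pold2 and Pold3 were called lower there, with log2 values of -0.44 ± 0.13 and -0.61 ± 0.13, and Pold2 lost its call with the block (FDR 0.0599). Pole2, the partner of Pole, was not called (log2 -0.25 ± 0.13, FDR 0.189). Pola2 was called lower in both exposures, and Prim2 at E9.75+12h (log2 -0.54 ± 0.11). At E9.25+24h all 9 polymerase genes were called with the block.

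All 11 genes for the clamp, the clamp loader, single-strand binding and ligation were called lower at E9.75+12h (median -0.63), and 8 were at E9.25+24h (median -0.31). Rfc4, a subunit of replication factor C, which opens the clamp and sets it on DNA, was at 43.0, 44.0 and 37.1 CPM in con and 19.7, 25.5 and 20.7 in R2b at E9.75+12h. After E9.25+24h, Rfc4 was at 80.2, 86.3, 96.8 and 82.0 against 59.9, 59.3, 74.8 and 70.5. R2b was at 53.1% of con and then 76.6% (log2 -0.91 ± 0.13 and -0.38 ± 0.09). Rfc1, the large subunit of the same loader, was at 194, 199 and 184 CPM against 124, 146 and 137, and at E9.25+24h at 226, 240, 245 and 231 against 196, 195, 206 and 210. Its fall was smaller and its spread narrow, with log2 values of -0.50 ± 0.09 (FDR 0.00473) and -0.22 ± 0.04 (FDR 0.0142).

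Rpa2, a subunit of replication protein A, which coats single-stranded DNA, was at 61.6, 66.5 and 63.0 CPM in con and 38.1, 40.1 and 41.2 in R2b at E9.75+12h. Rpa2 was at 108, 107, 137 and 120 against 90.4, 86.7, 105 and 94.4 at E9.25+24h. All R2b pools were below all con pools in both (FDR 0.00141 and 0.0418). Lig1, the ligase that seals lagging-strand fragments, was at 211, 248 and 212 CPM against 131, 140 and 161, and at E9.25+24h at 220, 220, 245 and 252 against 171, 167, 190 and 206. Its log2 fold changes were -0.64 ± 0.11 and -0.35 ± 0.08 (FDR 0.00298 and 0.0192). Pcna, the clamp itself, fell from 149 ± 6.69 to 94.4 ± 10.6 CPM (SD, n = 3) and from 106 ± 13.4 to 78.5 ± 9.88 (SD, n = 4). Rfc2, Rfc5 and Fen1, the flap nuclease, were also called lower in both exposures. Rfc3, Rpa1 and Rpa3 were called at E9.75+12h, and Rfc2 and Rpa3 lost that call with the block (FDR 0.0808 and 0.0586). Rpa3 was the one member not called with the block at E9.25+24h (log2 -0.13, FDR 0.0863).

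At E9.75+12h nucleotide supply had the largest median fall of the 7 steps other than fork protection. All 5 of its genes were called lower at E9.75+12h (median -0.78) and 4 at E9.25+24h (median -0.39). Tk1 (ENSMUSG00000025574, chr11:117815526-117826092, minus strand), thymidine kinase of the salvage route, was at 23.6, 22.4 and 19.4 CPM in con and 9.17, 9.55 and 12.8 in R2b at E9.75+12h. In the libraries of E9.25+24h Tk1 was at 41.7, 41.6, 54.0 and 54.8 against 27.8, 27.1, 30.7 and 38.1. R2b was at 48.1% and then 64.4% of con, the lowest of the 54 in both exposures (log2 -1.06 ± 0.17, FDR 0.00196, and -0.63 ± 0.14, FDR 0.0186). Rrm1, the large subunit of ribonucleotide reductase, which makes deoxynucleotides, was at 471, 453 and 434 CPM against 227, 291 and 273 at E9.75+12h. Rrm1 was at 522, 542, 571 and 554 against 405, 387, 426 and 447 at E9.25+24h, with a wide gap between groups. It had the smallest adjusted p of all members in both (FDR 0.00109 and 0.00309).

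Rrm2, the small subunit of ribonucleotide reductase, was at 200, 216 and 207 CPM in con and 97.9, 115 and 134 in R2b at E9.75+12h, and at 268, 286, 368 and 312 against 198, 182, 256 and 250 at E9.25+24h. Its fall was of like size to that of Rrm1 (log2 -0.84 ± 0.12 and -0.48 ± 0.13). Per kilobase of exon, con levels at E9.75+12h were 75.0 ± 2.75 CPM per kb for Rrm2 and 41.1 ± 1.70 for Rrm1 (SD, n = 3). The order came from the exon lengths, 2771 bases for Rrm2 and 11012 for Rrm1. Not divided by length, the con means were 208 CPM for Rrm2 and 453 for Rrm1. Tyms, thymidylate synthase, was called in both exposures (log2 -0.66 ± 0.12 and -0.30 ± 0.08). Dut, which removes dUTP, was called at E9.75+12h (log2 -0.77 ± 0.11) and, at E9.25+24h, with the block only (log2 -0.29 ± 0.10, FDR 0.0871, or 0.000473).

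**Figure D3:**
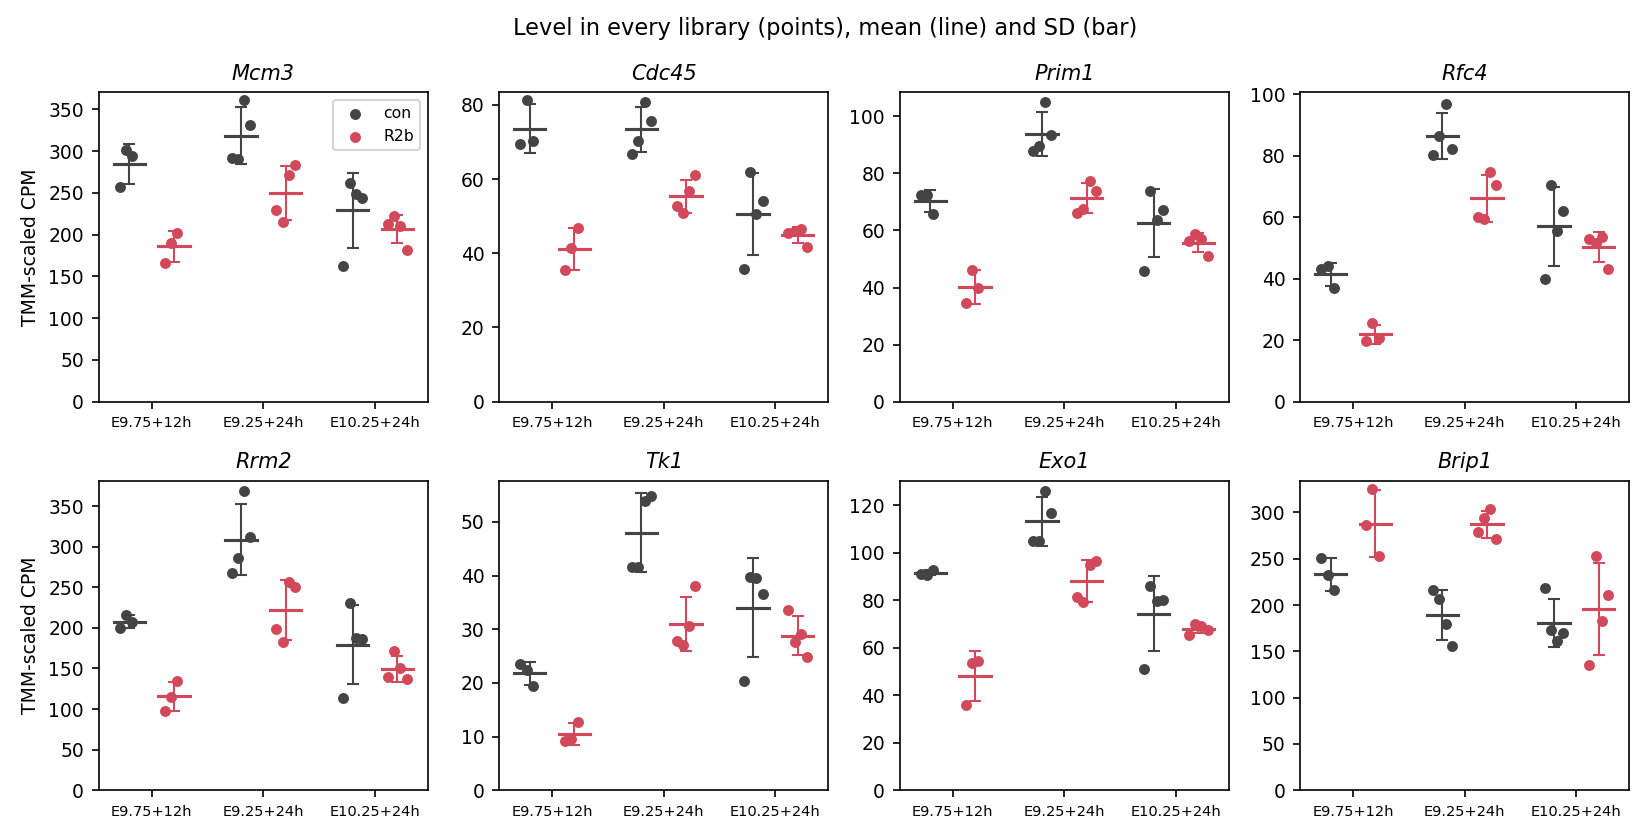
TMM-scaled CPM (vertical axis, starting at 0) of 8 replication genes in every con and R2b library at the 3 exposures; a point is a library, the line the mean and the bar the SD. The R2b points of the first 7 genes lie below the con points at E9.75+12h and E9.25+24h, and those of Brip1 lie above, while at E10.25+24h the groups of all 8 overlap.

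Chromatin assembly genes were called lower in 4 of 4 cases at E9.75+12h (median -0.61) and in 3 of 4 at E9.25+24h (median -0.38). Uhrf1, which reads hemimethylated DNA behind the fork, was at 197, 228 and 204 CPM in con and 115, 117 and 147 in R2b at E9.75+12h. For E9.25+24h, Uhrf1 was at 283, 278, 329 and 339 against 204, 190, 230 and 259. Its groups were apart in both (FDR 0.00195 and 0.0197). Chaf1a, the large subunit of the factor that places new histones, was at 134, 169 and 135 CPM against 86.4, 83.0 and 106, and at E9.25+24h at 153, 159, 174 and 182 against 119, 113, 140 and 145. Chaf1b, its partner, was at 107, 105 and 102 CPM against 61.7, 68.4 and 83.9, and then at 85.0, 84.7, 106 and 102 against 65.2, 66.1, 77.8 and 77.8. The pair fell by like amounts, with log2 values of -0.67 ± 0.13 and -0.55 ± 0.12 at E9.75+12h and -0.37 ± 0.09 and -0.40 ± 0.10 at E9.25+24h. Slbp, which processes histone mRNA, had the smallest change of the step (log2 -0.40 ± 0.12, FDR 0.0384, or 0.0547 with the block, and then -0.18 ± 0.05, FDR 0.0547, or 0.00211 with the block).

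The G1/S regulators, which control entry into S phase, were called lower in 5 of 5 cases at E9.75+12h (median -0.71) and in 2 of 5 at E9.25+24h (median -0.39). Ccne1, the gene of cyclin E1, was at 94.2, 106 and 101 CPM in con and 52.9, 65.5 and 65.7 in R2b at E9.75+12h. In the libraries of E9.25+24h Ccne1 was at 82.8, 94.3, 119 and 101 against 62.4, 59.4, 85.8 and 78.6, and 1 R2b pool reached into the con range. Its log2 fold change was -0.71 ± 0.11 (FDR 0.00196) and then -0.47 ± 0.14 (FDR 0.053, or 6.81e-05 with the block). Ccne2, the gene of cyclin E2, was at 53.2, 42.7 and 49.6 CPM against 18.7, 36.3 and 28.7, and then at 36.5, 39.6, 45.8 and 40.8 against 28.3, 29.5, 30.0 and 36.4. It was called lower in both (FDR 0.0179 and 0.0319).

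The atypical repressors E2F7 and E2F8 act late in the wave to shut it down. E2f8 was at 79.2, 68.8 and 67.0 CPM in con and 32.3, 39.8 and 56.2 in R2b at E9.75+12h, and at 47.8, 44.0, 50.7 and 52.4 against 32.6, 29.5, 38.7 and 41.9 at E9.25+24h. E2f8 was called in both exposures (FDR 0.0128 and 0.0297). E2f7 was at 83.6, 90.4 and 92.0 CPM against 47.1, 65.5 and 66.4, and at E9.25+24h at 65.7, 60.9, 72.5 and 81.3 against 51.9, 50.2, 64.1 and 71.2, where the groups overlapped. E2f7 was called at E9.75+12h (FDR 0.0127) and at E9.25+24h with the block only (FDR 0.233, or 0.00127). E2f1, an activator of the wave, was lower at E9.75+12h (log2 -0.50 ± 0.13, FDR 0.0234) and missed the threshold at E9.25+24h (log2 -0.31 ± 0.16, FDR 0.218, or 0.000448 with the block).

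In fork protection and repair, 3 of 4 genes were called lower in each early exposure and Brip1 went the other way. Exo1, an exonuclease of mismatch repair and end resection, was at 91.3, 90.8 and 92.8 CPM in con and 36.0, 53.8 and 54.3 in R2b at E9.75+12h. After E9.25+24h, Exo1 was at 105, 105, 126 and 117 against 81.5, 79.5, 95.1 and 96.6. R2b was at 52.4% and 77.8% of con (FDR 0.00192 and 0.0255). Rad51ap1, whose protein binds DNA, was at 35.4, 34.7 and 31.3 CPM against 13.5, 20.2 and 18.8, and then at 38.4, 40.4, 45.4 and 48.0 against 28.6, 27.7, 32.2 and 35.6. Its fall was next in size to that of Tk1 at E9.75+12h (log2 -0.95 ± 0.16, then -0.47 ± 0.10). Clspn, the gene of the fork and checkpoint mediator claspin, was called lower in both (log2 -0.77 ± 0.13 and -0.39 ± 0.10).

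Brip1 (ENSMUSG00000034329, chr11:86058138-86201193, minus strand) encodes a DNA helicase that partners BRCA1 in crosslink repair. It was at 251, 232 and 216 CPM in con and 286, 325 and 253 in R2b at E9.75+12h, and at 216, 206, 180 and 156 against 279, 294, 304 and 271 at E9.25+24h. Every R2b library was above every con library in both exposures, which 19.8% and 12.2% of all genes were. Brip1 missed the threshold at E9.75+12h (log2 0.31 ± 0.11, FDR 0.0693) and was called higher at E9.25+24h (log2 0.60 ± 0.10, FDR 0.00615), and with any one litter left out there its FDR was at most 0.0454. At E10.25+24h Brip1 was higher in R2b in litters 2, 3 and 4, by 0.55, 0.19 and 0.31 on the log2 scale, and lower in litter 1, by -0.69. Its overlapping annotation on the other strand is a pseudogene, and how the counting treated strand was not given in the sources used here.

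The log2 fold change was less negative, or for Brip1 more positive, after 24 hours from E9.25 than after 12 hours from E9.75 in 51 of 54 members, but no single difference passed the test. The difference of the log2 fold changes, E9.25+24h minus E9.75+12h, had a median of 0.34 over the members and 0.04 over all genes, where 55.4% of 15688 genes were positive. In the edgeR fit of all 22 libraries, 0 members and 0% of all genes passed an FDR under 0.05. At an unadjusted p under 0.05 there were 18 members, against 12.2% of all genes, and 30 with the litter block (15.2%). Without litter 1 of E9.75+12h there were 2 (4.99%) and the median was 0.23, and without the R2b library of that litter alone there were 8 (6.76%). The fit also holds litter 1 of E10.25+24h, whose transgene reads went against its labels. Without that litter there were 28 members (2068 of 15671 genes). With the block as well there were 40 (2895 of 15671), and 6 passed an FDR under 0.05 with a positive difference (277 of 15671). DESeq2 called 1 member, with a positive difference, as it did 0.540% of all genes. The 5 smallest p-values were those of Gins3 (0.59 ± 0.14, edgeR FDR 0.153), Pola1 (0.52 ± 0.14, FDR 0.185), Rfc1 (0.30 ± 0.09, FDR 0.233), Rrm1 (0.40 ± 0.14, FDR 0.289) and Exo1 (0.59 ± 0.21, FDR 0.292). Length of exposure, stage at its start and the number that heads the sample titles all differ between these sets and cannot be told apart. The mitochondrial share differed too, at 4.00% to 6.69% in the libraries of E9.75+12h and 1.53% to 1.70% in those of E9.25+24h. Its part in the difference was not tested.

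**Figure D4:**
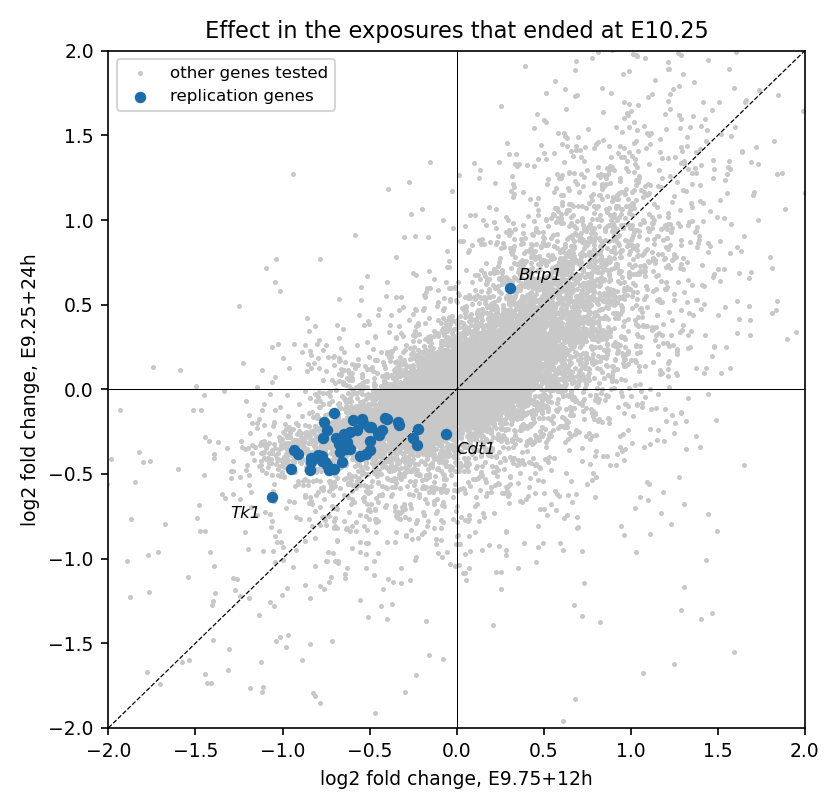
Log2 fold change of R2b over con at E9.75+12h (horizontal) and at E9.25+24h (vertical) for the 54 replication genes (blue) and the other genes tested in both (grey), with genes beyond the axis limits not drawn; the dashed line marks equal effects. All members but Brip1 lie in the lower left quadrant, most of them above the dashed line, with medians of -0.64 and -0.32.

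At E10.25+24h no member was called by edgeR or by DESeq2, 0 had an unadjusted p under 0.05, and 0% of 15203 genes passed an FDR under 0.05 (1.15% had an unadjusted p under 0.05). The median log2 fold change over the members was -0.15. Litter 1 stood apart from the other 3. The members' median difference, R2b minus con, was 0.31 in litter 1, where the library labelled con carried the transgene reads, and -0.28, -0.18 and -0.34 in litters 2, 3 and 4. In litter 1, 2 of 54 members were lower in the library labelled R2b, against 53, 50 and 53 in the other litters, while the medians over all genes were -0.01 to 0.01. At the earlier exposures the litter medians were -0.78, -0.64 and -0.47 at E9.75+12h and -0.28 to -0.37 at E9.25+24h.

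**Figure D5:**
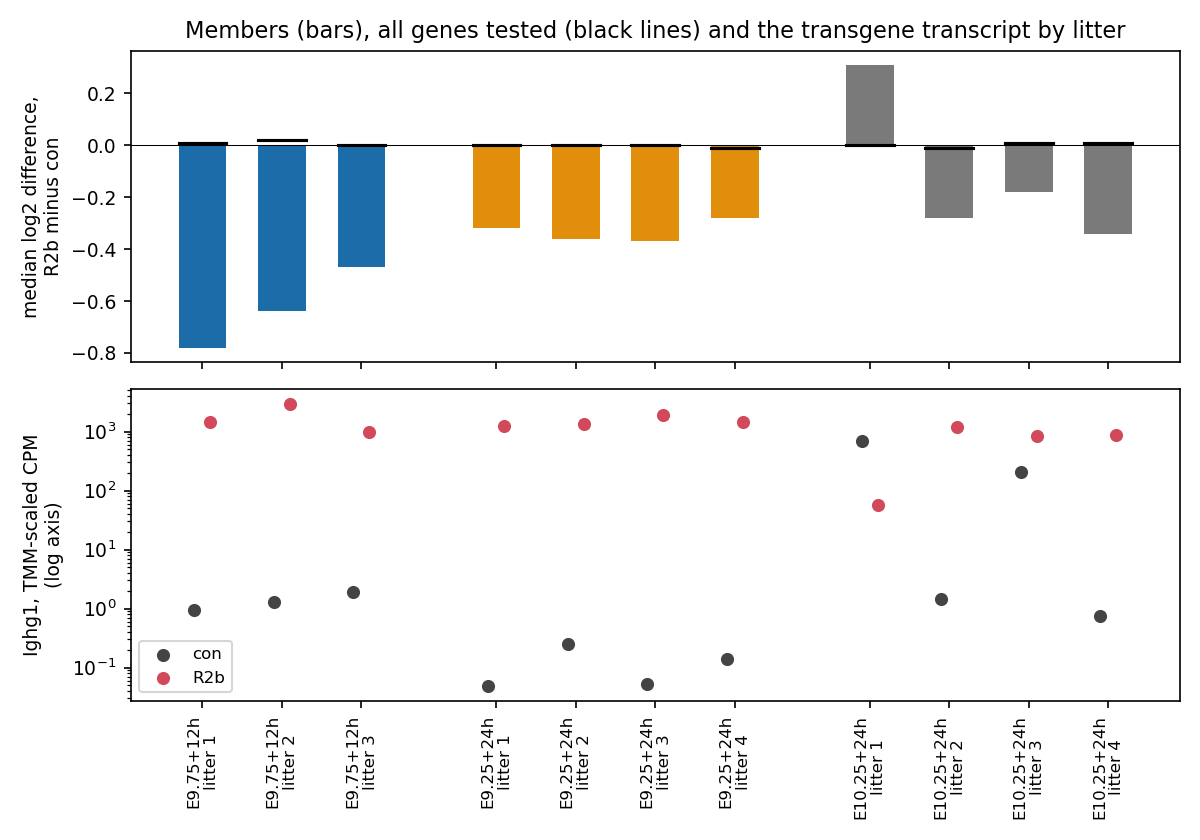
Median log2 difference over the 54 replication genes (bars) and over all genes tested (black lines) in each litter, R2b minus con, above the level of Ighg1 in the same pair of libraries (TMM-scaled CPM, log axis). Litter 1 of E10.25+24h is the one litter with a positive bar, 0.31, and the one where the library labelled con has more Ighg1 than the library labelled R2b.

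Tk1 shows the pattern in single libraries. At E10.25+24h it was at 39.7, 39.5 and 36.5 CPM in the con libraries of litters 2 to 4 and at 27.7, 29.1 and 24.9 in their R2b libraries. In litter 1 the library labelled con had 20.3 CPM and the library labelled R2b had 33.5. Within litters 2 to 4 the groups were apart, and litter 1 had the order reversed.

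Without litter 1, 0 members passed an FDR under 0.05 at E10.25+24h, but 46 had an unadjusted p under 0.05, which 16.0% of all genes had, and the median was -0.27. With litter 1 left out and the litter as a block, 20 members were called lower and 1, Brip1, higher, where 1.25% and 2.79% of 15195 genes were. The 20 included Tk1 (log2 -0.50 ± 0.06, FDR 0.0222), Rrm2 (-0.39 ± 0.04, FDR 0.0198), Uhrf1 (-0.38 ± 0.05, FDR 0.0234), Chaf1b (-0.36 ± 0.05, FDR 0.0274) and Mcm10 (-0.33 ± 0.05, FDR 0.032). Brip1 was at 0.35 ± 0.07 (FDR 0.0483). The difference of effects, late minus early 24-hour exposure, had a median of 0.17 over the members with litter 1 and 0.03 without it. No member passed that test in either fit (edgeR, 1 and 0 members at an unadjusted p under 0.05, against 8.57% of all genes with litter 1).

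The median fall of genes with and without E2F-type letters was close, with no test made. At E9.75+12h the median log2 fold change was -0.61 over the 17 members with a match, -0.66 over 28 with a window and no match, and -0.65 over 9 with no window. At E9.25+24h these medians were -0.29, -0.32 and -0.27. Tk1, with no match, had the largest fall in both, and Cdt1, whose match lies from the start on, the smallest at E9.75+12h.

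Other genes of the same processes were counted from lists. Of 38 other replication genes, 27 were called lower and 1 higher at E9.75+12h (median -0.58), and 13 lower and 1 higher at E9.25+24h (median -0.26, with 29 lower in the blocked fit). Those with the smallest adjusted p included Gmnn, the gene of the licensing inhibitor geminin, with 50.7 ± 4.96 CPM in con and 23.9 ± 3.11 in R2b after 12 hours (SD, n = 3; log2 -1.08 ± 0.13). Cdc7 and Dbf4, the kinase pair that fires origins, fell there by log2 values of -0.80 ± 0.11 and -0.77 ± 0.11. Top2a, a topoisomerase that relieves twist ahead of the fork, was at -1.07 ± 0.15 and Nasp, a histone chaperone, at -0.87 ± 0.13. At E9.25+24h the smallest adjusted p-values were those of Top2a (-0.41 ± 0.07), Atad5, which unloads the clamp (-0.43 ± 0.08), Mcmbp, an MCM-binding protein (-0.29 ± 0.06), Dna2, a nuclease (-0.45 ± 0.09), and Dnmt1, the maintenance DNA methyltransferase (-0.38 ± 0.08). The one gene called higher was Pold4, a small subunit of polymerase delta, with 7.85 ± 2.07 CPM in con and 13.8 ± 1.48 in R2b at E9.75+12h (log2 0.81 ± 0.21, FDR 0.0195) and 4.59 ± 0.458 against 7.22 ± 1.15 at E9.25+24h (log2 0.65 ± 0.15, FDR 0.0236).

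Of 26 other G1/S regulators, 11 were called lower and 1 higher at E9.75+12h (median -0.17), and 7 lower and 1 higher at E9.25+24h (median -0.14, with 12 lower and 2 higher in the blocked fit). Mycn, a MYC family factor, fell from 109 ± 5.76 to 47.4 ± 11.1 CPM (SD, n = 3) and from 115 ± 15.7 to 59.6 ± 6.71 (SD, n = 4). Cdkn1a, the gene of the kinase inhibitor p21, rose by 0.89 ± 0.11 and 0.94 ± 0.11 on the log2 scale (edgeR FDR 0.000853 and 0.00201). Ccnd1, the gene of cyclin D1, fell by 0.57 and 0.54 on the log2 scale, Ccna2, of cyclin A2, by 0.92 and 0.33, and Skp2, a ubiquitin ligase subunit, by 0.58 and 0.32.

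All 24 genes of the mitotic list, which shares Top2a with the other replication genes, were called lower at E9.75+12h (median -0.97). At E9.25+24h 17 were (median -0.33, with 24 in the blocked fit). Cenpe, a kinetochore motor, fell by 1.17 on the log2 scale at E9.75+12h, Cenpf by 1.16, Bub1b by 1.11, Bub1 by 1.08 and Mki67, the proliferation marker, by 0.98. At E9.25+24h Top2a was at -0.41, Mki67 and Kif11 at -0.39, Cenpf at -0.34 and Cenpe at -0.33. The range over the mitotic list was -1.17 to -0.74 at E9.75+12h, and that over the replication genes -1.06 to 0.31. At E9.25+24h the ranges were -0.44 to -0.22 and -0.63 to 0.60. At E10.25+24h 0 genes of the other replication, G1/S and mitotic lists were called, with medians of -0.11, -0.07 and -0.14. Without litter 1 the medians were -0.20, -0.13 and -0.27 and again 0 were called (23, 12 and 24 at an unadjusted p under 0.05, against 16.0% of all genes). With the block as well, 9, 3 and 12 were called lower and 0, 1 and 0 higher.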

How the data were processed

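Libraries were made with a stranded kit after oligo(dT) selection, per the labels' protocols. The deposited file gives raw counts, whole numbers for each gene, for 22 of 24 samples. Novoalign 2.08.03 and mm10 are named in the submitters' processing notes. The counter, the annotation and the setting for strand are not given in the sources used here. Another 2 columns matched no sample and were not used, and 2 samples of E9.75+12h had no column, so that exposure has 3 litters where 4 had been planned for. Symbols (15522 of 15736 genes), positions and exon lengths came from GENCODE M21 (GRCm38).

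Each exposure was fitted alone in edgeR 4.0.16 (R 4.3.3) with filterByExpr, TMM, glmQLFit and glmQLFTest on 2 group means, with Benjamini-Hochberg adjustment over all genes tested and a threshold of 0.05. SEs were derived from the F statistic. Differences of effects were contrasts in a fit of all 22 libraries. CPM values use TMM factors within an exposure, so levels are not compared between exposures. Litter differences use log2 CPM with a prior count of 2. The fit was tested on simulated counts at 2-fold and 1.5-fold changes. It recovered 73% and 38% of changed genes among 14882 at E9.75+12h, 70% and 45% among 14979 at E9.25+24h, and 78% and 53% among 15203 at E10.25+24h. Unchanged genes called were 9, 6 and 8. The simulation drew each gene independently, with no litter effect and no library that went against its label. Changes smaller than 1.5-fold were not simulated. These shares therefore do not give the power of the fits to the real libraries. Alternatives were RLE size factors, other filters on low counts, DESeq2 1.42.0, all libraries in one fit, the litter block, a fold change of at least 1.5, and leaving out each library or litter.

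The con and R2b pools of a litter come from the same dam per the labels, which is why the litter can serve as a block. The correlation across genes of same-litter deviations from the group means was 0.42, 0.49, 0.77 and 0.75 at E9.25+24h, -0.12, -0.24 and -0.26 at E9.75+12h, and -0.11, 0.39, 0.31 and 0.29 at E10.25+24h.

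The members, the lists and the tests were chosen with earlier results of these data known. Values in every library are given for the members with the 2 smallest adjusted p-values of each step in either early exposure, for the 5 with the smallest p for the difference of effects, and for members called against their step. Values of Mcm2, Cdt1 and Pold1 by library, and those of Pold4, were added after they were seen. Of genes outside the members, at most 5 called genes per list and exposure are named, smallest adjusted p first.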

Additional observations from a re-analysis of the deposited data

Results flagged for a closer look

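In the con group of E10.25+24h, 3 members had 1 library far from the other 3 by Dixon's test at the 95% level. It was the library labelled con of litter 1 each time. Exo1 was at 50.9 CPM there and at 79.9 to 85.9 in the others. Rfc1 was at 149 CPM against 177 to 178, and Tk1 at 20.3 against 36.5 to 39.7. The test was run on 27 values in each of 4 groups of 4 libraries, and chance flags about 1 in 20. The same library carried 703 CPM of Ighg1, and whether the transgene set these levels was not tested.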

How the results depend on the processing

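At E9.75+12h, leaving out a library or litter gave 12 to 49 members called in either direction, and the block without litter 1 gave 2. At E9.25+24h the same gave 2 to 30, one fit of all libraries 18, a fold change of at least 1.5 gave 2, DESeq2 41, the replicate block 53, and the block without litters 1, 2, 3 and 4 in turn 51, 50, 52 and 53. The median there ran from -0.36 to -0.26 without one library. At E10.25+24h the block without litter 1 gave 21, and without litters 1 and 3, an alternative chosen after seeing the data, 28, of which 27 were lower and 1 higher (2.07% and 3.70% of 15200 genes). For the difference of effects between the early exposures, DESeq2 gave 1, leaving out a single library 0 to 5, leaving out litter 2 of E9.75+12h 3 (7 with the block), and the block without litter 1 of E10.25+24h 6. Brip1 at E10.25+24h ran from -0.06 to 0.37 with a library or litter left out and was -0.07 with the block and without litter 2. Gins3 there ran from -0.1 to 0. The cause of these changes was not tested. With any one library left out, 37 members kept their lower call after 12 hours and 3 after 24 hours from E9.25 (3.68% and 1.38% of all genes), and with any one litter left out 12 and 1 did (1.21% and 0.358%).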
